A study of Mus musculus with 21 samples.

Results

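The genes described are immediate early genes and short regulator genes, 10 of the 20311 protein-coding genes of at least 1 kb on the mouse assembly GRCm38.p6: Fos, Fosl1, Jun, Junb, Egr1, Myc, Snai1, Snai2, Rhob and Purb. The measure was the percent of each gene body, from the annotated start to the annotated end, that lay inside peaks of H3K36me3, trimethylation of lysine 36 of histone H3, and it is called cover here. The set was chosen by measured values: Purb, Rhob and Snai1 lost nearly all cover under methionine restriction at day 1, and the other genes were added as short or rapidly induced regulators. The day 1 restriction values are therefore given as a description without a test. All 10 genes were under 10 kb, from 1.84 kb for Junb to 8.48 kb for Purb, and all 10 passed the filter for testing, a mean cover of at least 5% over the 10 wild-type libraries.

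The cells were C2C12, a mouse myoblast line that exits the cell cycle and forms muscle fibres in culture. Chromatin immunoprecipitation with an antibody against H3K36me3 was followed by sequencing (ChIP-seq), and 20 peak lists were used. Wild-type (WT) cells, with no allele or agent named beyond the medium, gave 2 replicate libraries per condition. Sampling fell on day 0, day 1 and day 5, and on each of the later days cells were either in control medium or restricted for methionine, which makes 5 conditions. A pair of Setd2 knockout (KO) lines, called KO line 1 and KO line 2 here after the sample titles, gave 1 library per line and condition, with no replicate within a line. The names of the peaks inside the lists instead call the line 2 libraries replicate 2 of a single KO group, so whether these are separate clones is known from the titles alone. Nothing in the labels says that WT replicates came from separate cultures, so p-values measure the spread between these libraries, which may be technical. Drosophila chromatin was added to every sample as a spike-in, but the lists do not say whether it was used to scale them, and they carry no read depth. Cover therefore records where and how far peaks were called, not the amount of the mark.

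SETD2 travels with elongating RNA polymerase II and is the enzyme that places H3K36me3 over the bodies of transcribed genes, with the mark usually strongest toward the 3′ end. Immediate early genes are switched on within minutes of a growth factor or stress signal without new protein synthesis, and their short gene bodies allow a fast response. FOS, FOSL1, JUN and JUNB pair into the AP-1 transcription factor, EGR1 is a zinc-finger factor, and MYC drives growth and proliferation. SNAI1 and SNAI2 are zinc-finger repressors of epithelial genes, RHOB is a small GTPase whose gene is itself induced by stress, and PURB is a single-stranded DNA-binding protein that represses genes of muscle and smooth muscle.

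The peak lists of the WT libraries covered 110 to 183 Mb of the genome, those of KO line 1 covered 0.307 to 74.1 Mb, and those of KO line 2 covered 0.00821 to 7.13 Mb. Setd2 itself had 45.6 to 82.8% cover in the 10 WT libraries, 0 to 24.0% in KO line 1 and 0% in all libraries of KO line 2. Cover does not show whether the SETD2 protein was lost. Of 12 muscle markers, 11 had at least 50% cover at day 0 or in control medium at day 5, the exception being Myf5, and of 9 markers of other lineages only Cd68 did.

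At day 0 and in control medium, WT peaks where present lay over the bodies of these genes and left their starts free. Start and strand were available for 6 of the genes: Fos, Jun, Junb, Snai1, Rhob and Purb. In every WT library the 300 bases around the start, 250 before it and 50 after it, were 0% inside peaks for all 6 genes. At day 0 each gene body was divided into 3 equal parts. Rhob, on the minus strand at chr12:8497661-8500009, had 47.3% and 54.9% of its 5′ part inside peaks and 100% of its middle and 3′ parts in both replicates. Jun, on the minus strand at chr4:95049036-95052222, had 15.7% and 11.4% of its 5′ part and 100% of the rest. Fos and Junb had 0% of the 5′ part in both replicates, Junb having no peak at all in replicate 1. The step was smaller at Snai1, with 67.3% and 94.7% of the 5′ part, and at Purb, with 80.5% and 71.7%. The 3′ part of Purb had 100% and 88.5%, in replicate 2 less than its middle part at 100%. At several genes peaks also ran on past the 3′ end, though not at Fos at day 0 or day 1. In control medium and at day 0 the peak over Rhob reached 693 to 941 bases beyond it, the peak over Jun 378 to 967 bases and the peaks over Purb, at chr11:6467599-6476076 on the minus strand, 2038 to 4522 bases. A rise from the 5′ to the 3′ part was also seen over 807 background genes, tested genes under 10 kb with a known strand. They were taken for at least 50% cover in both WT libraries of day 0, so their high level there follows from the choice. At day 0 their mean cover was 33.7% and 35.3% in the 5′ part against 95.7% and 94.6% in the 3′ part.

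**Figure D1:**
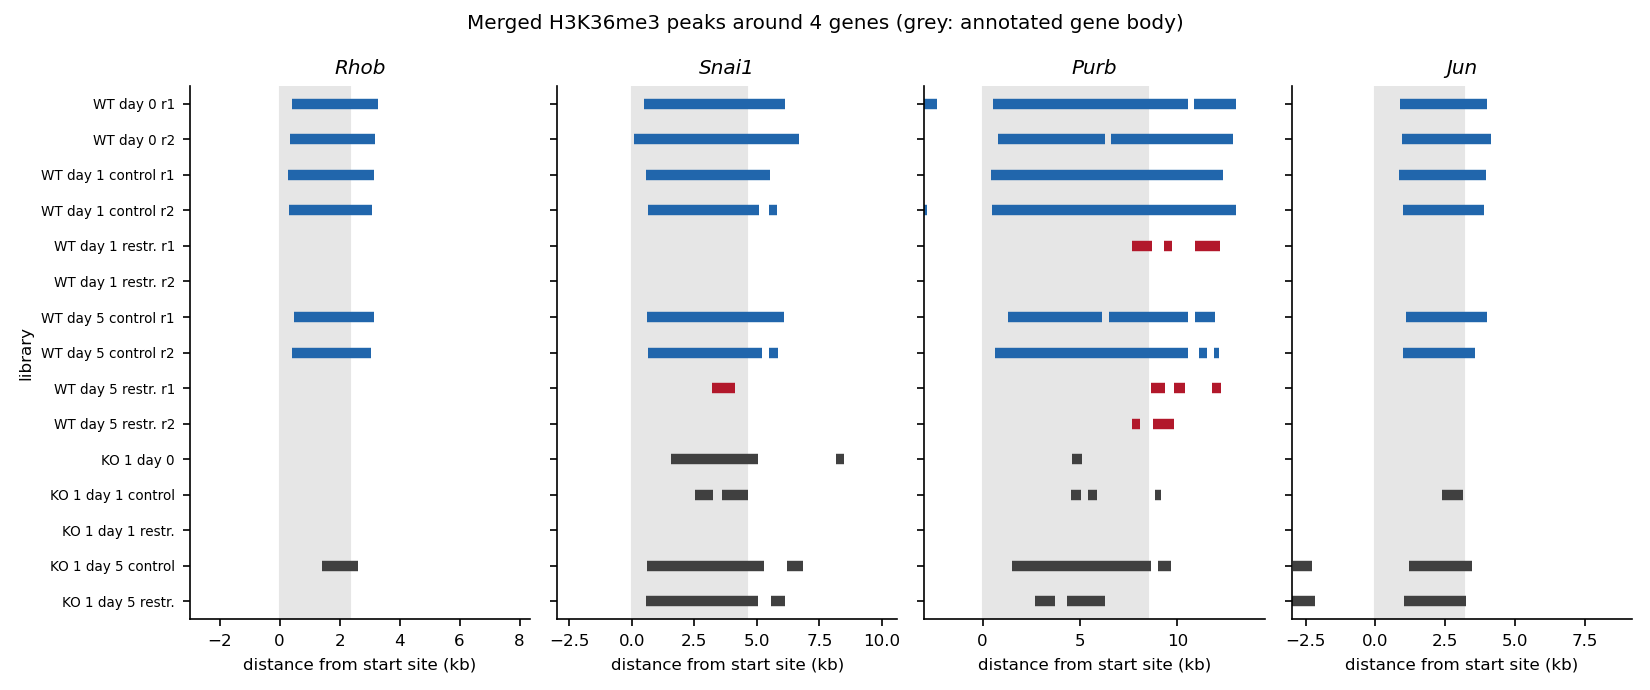
Merged peaks (bars) around Rhob, Snai1, Purb and Jun in the 10 WT libraries and the 5 libraries of KO line 1, drawn as distance in kb from the start site in the direction of transcription, with the annotated gene body in grey. Blue bars are WT at day 0 or in control medium, red bars WT under restriction and dark bars KO line 1; at Rhob and Jun the blue bars begin inside the gene and run past its 3′ end and there is no red bar, while Snai1 and Purb also have separate blue bars past the 3′ end and Purb has some upstream of the start.

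The promoter windows of 4 of these genes are shown because they mark the stretch that stayed outside every WT peak while the body beside it gained or lost its peak. They are RefSeq sequences on GRCm38.p6, each 300 bases, written 5′ to 3′ on the strand of the gene. Capitals mark the CCAAT core in Rhob and Snai1, the palindrome TGACGTCA in Purb and the TATAAA box in Fos, on either strand.
Rhob, chr12:8499960-8500259, minus strand: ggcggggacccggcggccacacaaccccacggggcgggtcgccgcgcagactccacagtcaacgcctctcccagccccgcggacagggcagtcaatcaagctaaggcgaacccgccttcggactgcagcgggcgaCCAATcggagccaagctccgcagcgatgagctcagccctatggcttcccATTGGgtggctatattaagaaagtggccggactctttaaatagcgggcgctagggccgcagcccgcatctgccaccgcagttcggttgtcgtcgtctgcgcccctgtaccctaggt
Snai1, chr2:167537945-167538244, plus strand: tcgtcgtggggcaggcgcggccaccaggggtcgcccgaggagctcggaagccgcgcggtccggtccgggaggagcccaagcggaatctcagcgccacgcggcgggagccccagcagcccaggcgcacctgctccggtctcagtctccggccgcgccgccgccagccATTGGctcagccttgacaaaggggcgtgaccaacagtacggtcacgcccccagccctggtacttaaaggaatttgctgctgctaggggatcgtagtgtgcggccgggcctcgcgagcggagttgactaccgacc
Purb, chr11:6476027-6476326, minus strand: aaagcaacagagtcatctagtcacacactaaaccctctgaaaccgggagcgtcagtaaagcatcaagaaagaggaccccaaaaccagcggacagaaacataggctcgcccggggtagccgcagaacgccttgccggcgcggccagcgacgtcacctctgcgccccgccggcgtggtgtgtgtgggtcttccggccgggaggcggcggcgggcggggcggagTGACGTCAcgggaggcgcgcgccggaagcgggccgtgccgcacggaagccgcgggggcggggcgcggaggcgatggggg
Fos, chr12:85473640-85473939, plus strand: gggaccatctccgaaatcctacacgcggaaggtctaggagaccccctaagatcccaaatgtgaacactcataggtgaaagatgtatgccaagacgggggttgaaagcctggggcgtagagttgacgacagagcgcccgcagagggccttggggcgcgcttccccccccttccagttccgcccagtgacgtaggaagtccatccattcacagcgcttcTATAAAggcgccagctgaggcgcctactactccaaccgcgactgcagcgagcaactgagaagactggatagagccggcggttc

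Both strands of these windows were searched for 8 motifs, and matches are descriptions of letters, not of bound sites. CCAAT, the core of the NF-Y site, occurred in 4 of the 6 promoters with a sequence, those of Snai1, Jun, Junb and Rhob, and in 38.2% of all 21263 promoters of this length. Rhob held it at 2 places, beginning 115 and 66 bases before the start. TATAAA was found in Fos, beginning 33 bases before the start, and in 12.6% of all promoters. It was also found in Junb, but there it began at the annotated start itself and not before it. TGACGTCA, the palindromic cyclic AMP response element, was found only in Purb among the 6, 29 bases before the start, and in 2.23% of all promoters. GCGGGGGCG, an EGR-type site, was also found only in Purb among the 6 and in 3.87% of all promoters. CANNTG, the E-box that some of the other motifs may overlap, was present in 5 of the 6 and in 69.0% of all promoters. TGANTCA, the AP-1 site (6.99% of all promoters), CACGTG, the MYC-type E-box that is also a CANNTG (7.84%), and the CArG box of serum response factor (1.52%) had no match in the 6 windows. The 6 windows held 58.7 to 70.0% G and C, where the median promoter held 56.3%.

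At day 1, the comparison that chose the set, restricted WT libraries were compared with WT libraries in control medium. Rhob had 88.7% and 87.0% cover in control medium and 0% in both restricted libraries. Snai1 had 87.5% and 86.1% in control medium and 0% in both restricted libraries. Purb had 94.8% and 94.4% in control medium, against 9.54% and 0% under restriction. These 3 genes went from the best-covered of the set to none or a remnant, and the groups did not overlap.

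At day 1 Jun had 73.6% and 69.2% in control medium and 0% in both restricted libraries. Fosl1, one of the longest of the set, had 71.9% and 69.3% against 5.79% and 7.30%; 33.7% of its body overlaps the gene Ccdc85b, so peaks there cannot be assigned to one of these genes. Snai2, the relative of Snai1 that marks mesenchymal cells, had 67.2% and 73.1% against 14.4% and 0%. Egr1 had 61.9% and 67.4% in control medium and 20.2% and 28.7% under restriction, the highest restricted cover of the set at day 1. Fos and Myc were already low in control medium: Fos had 21.4% and 20.6% against 0% in both restricted libraries, and Myc 19.4% and 20.8% against 12.8% and 6.99%. As a share of the control mean, Myc kept 49.3% and Egr1 37.8%. Junb had 0% in all 4 day 1 libraries. In 9 of the 10 genes both restricted libraries lay below both control libraries, beside 59.7% of the 9651 tested genes, and nothing is read from that count because the rule used this contrast. Just outside the complete loss were Purb, Fosl1 and Snai2, each with a peak in at least 1 restricted library, and just inside it were Rhob, Snai1, Jun and Fos.

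**Figure D2:**
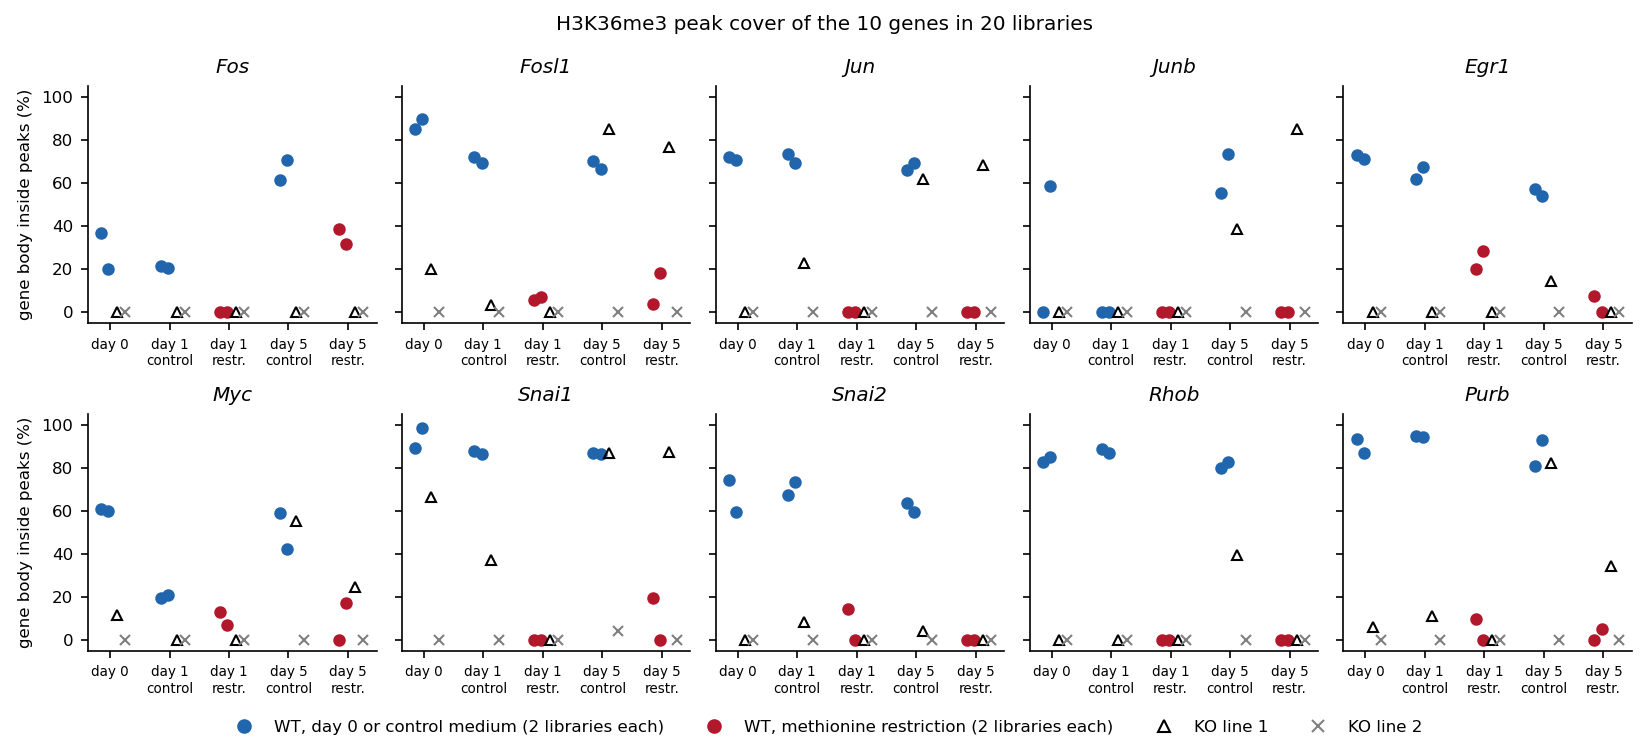
Cover (percent of the gene body inside peaks) of the 10 genes in the 20 libraries, one panel per gene, with day and medium on the horizontal axis. Blue points are WT at day 0 or in control medium, red points WT under restriction (2 libraries each), triangles KO line 1 and crosses KO line 2; every red point at day 5 lies below both blue points of day 5, and the triangles of Fosl1, Jun, Junb and Snai1 are high at restricted day 5.

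The peaks in control medium at the 4 genes with complete loss at day 1 ranked high in their lists at Rhob, Jun and Snai1 and not at Fos. The −log10 q of a peak is the authors' value and is used here only to place a peak within its own list. The peak over Rhob at day 1 in control medium had a −log10 q of 14.7 and 14.8 and stood above 99.9% of the peaks of each list. In the restricted day 1 libraries the nearest peak was 154141 and 153941 bases away from the gene. Jun at day 1 in control medium had peaks of 11.5 and 10.6 on the −log10 q scale, above 99.7% and 99.6% of their lists, and under restriction the nearest peaks were 74129 and 73284 bases away. The peaks over Snai1 had 6.93 and 6.06, above 97.5% and 96.4% of their lists, and under restriction the nearest were 17877 and 17623 bases away. The peaks over Fos had 2.79 and 1.89, above only 59.2% and 29.8% of their lists.

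At day 5 all 10 genes had lower cover under restriction, by limma on the 10 WT libraries with Benjamini-Hochberg (BH) adjustment over 9651 genes. The choice of the set did not rest on the day 5 libraries. The spread in this fit, however, also drew on the day 1 libraries that chose the set. Lower cover was called at 41.5% of all tested genes, at 48.9% of tested genes under 10 kb and at 53.4% of those under 5 kb. The median difference, restricted minus control, was -62.9 points of gene body over the 10 genes, against -9.25 over all tested genes, -16.1 over those under 10 kb and -20.7 over those under 5 kb. Over all tested genes 413 were called higher and 4002 lower; centring each library on its median turned this split to 3811 higher and 1398 lower and the median of all tested genes to 7.64 points, while 9 of the 10 genes were still called lower, with a median of -46.0 points. With a fit of only the 6 libraries of days 0 and 5 all 10 genes were called lower, beside 3812 of 9651 tested genes. Their adjusted p was then 0.000513 (Rhob) to 0.0365 (Junb), larger at each gene than the value given below (limma). The pattern at Purb, Rhob and Snai1 at day 1 was known when day 5 was tested, so the day 5 result gives it no independent support.

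Among the AP-1 genes, Jun had 66.0% and 69.3% cover in control medium at day 5 and 0% in both restricted libraries. Its difference was -67.6 ± 3.54 points (SE, adjusted p = 9.04e-06, limma). Junb, marked at day 5 but in no day 1 library, had 55.2% and 73.3% in control medium and 0% under restriction. Its difference was -64.2 ± 15.3 points (SE, adjusted p = 0.00983, limma), with the largest SE of the set, and both control peaks were weak, with a −log10 q of 2.52 and 2.25. With peaks under 3 on that scale removed, Junb had 0% in all 4 day 5 libraries, and without control replicate 2 its call was lost at -55.2 points (adjusted p = 0.0689, limma, in a range of 4.61e-05 to 1 over 17 alternatives). Fosl1 had 70.2% and 66.6% in control medium and 3.76% and 18.2% under restriction, with no overlap (-57.4 ± 5.11 points SE, adjusted p = 8.18e-05, limma).

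Fos had the highest restricted cover of the set at day 5. It had 61.6% and 70.6% in control medium and 38.6% and 31.8% under restriction, so that its restricted libraries at day 5 were above its control libraries at day 1. The difference was -30.9 ± 5.83 points (SE, adjusted p = 0.00330, limma), with no overlap between media. The call at Fos was lost when every library was centred on its median (-14.0 points, adjusted p = 0.0694, limma) and when all lists were shortened to one length (-11.5 points, adjusted p = 0.714, limma). With peaks of a −log10 q of at least 3 the difference was -66.1 points, with restricted cover at 0%, and with 5 kb added on each side of the gene it was -9.47 points. Over its 18 alternatives the adjusted p was 0.000308 to 0.714.

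Among the zinc-finger factors and MYC, Egr1 had 57.4% and 53.9% in control medium and 7.76% and 0% under restriction (-51.8 ± 4.63 points SE, adjusted p = 8.10e-05, limma). Snai1 had 86.7% and 86.3% in control medium against 19.5% and 0%, a single weak peak in 1 replicate with a −log10 q of 1.38 (-76.7 ± 6.22 points SE, adjusted p = 5.22e-05, limma). Snai2 had 63.5% and 59.6% against 0% in both (-61.5 ± 6.33 points SE, adjusted p = 0.000164, limma). Myc, whose control libraries lay further apart than those of any other gene of the set except Junb, had 58.7% and 42.1% against 0% and 17.2% (-41.8 ± 6.77 points SE, adjusted p = 0.00156, limma). In each of these 4 genes both restricted libraries were below both control libraries.

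Rhob and Purb again lost the most. Rhob had 79.9% and 82.6% in control medium at day 5 and 0% in both restricted libraries (-81.3 ± 3.43 points SE, adjusted p = 5.68e-06, limma). Purb had 80.7% and 92.7% in control medium and 0% and 5.20% under restriction (-84.1 ± 5.39 points SE, adjusted p = 2.01e-05, limma). Around Purb some peaks persisted downstream: in restricted replicate 1 at day 5 the nearest peak began 161 bases past the gene body, in the stretch that the control peaks also covered.

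**Figure D3:**
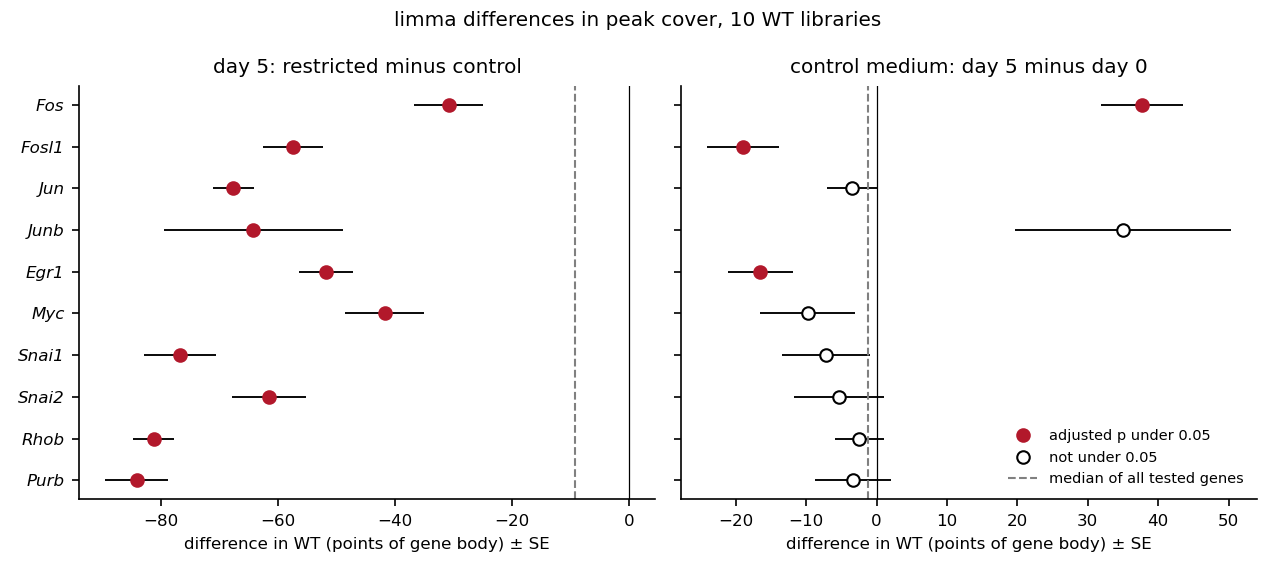
Differences in cover (points of gene body) from limma for the 10 genes, restricted minus control at day 5 on the left and day 5 minus day 0 in control medium on the right, with bars of 1 SE. Filled points have an adjusted p under 0.05 and the dashed line is the median of all tested genes; all 10 points on the left are filled and lie beyond the median of -9.25, and on the right only Fos, Fosl1 and Egr1 are filled.

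Raising the minimum −log10 q of a peak to 3 removed what was left under restriction. With it, all 10 genes had 0% cover in all 4 restricted WT libraries, as did 11.9% of all tested genes and 35.2% of tested genes under 10 kb. The day 1 libraries among the 4 are those that chose the set, so nothing is read from these shares. Among the peaks as deposited, 3 of the 10 had 0% in all 4 restricted libraries: Jun, Junb and Rhob.

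The loss at day 5 differed between length classes and was deepest in the shortest. Among genes with at least 50% cover in both control libraries at day 5, the median difference under restriction was -30.9 points in 431 genes of 1 to 5 kb, -16.5 points in 736 genes of 5 to 10 kb, -10.5 points in 2044 genes of 10 to 30 kb, -12.1 points in 1335 genes of 30 to 100 kb and -20.7 points in 180 longer genes. These genes were selected on high cover in control medium, the upper arm of the same comparison, so the values are a description with no test. Of the set 7 genes fell in the class of 1 to 5 kb and 2, Fosl1 and Purb, in that of 5 to 10 kb, while Myc was not included because 1 control library had 42.1%. Cover under 10% in both restricted libraries was seen in 15.8% of the genes of 1 to 5 kb, in 2.99% of those of 5 to 10 kb and in at most 1.11% in each longer class.

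**Figure D4:**
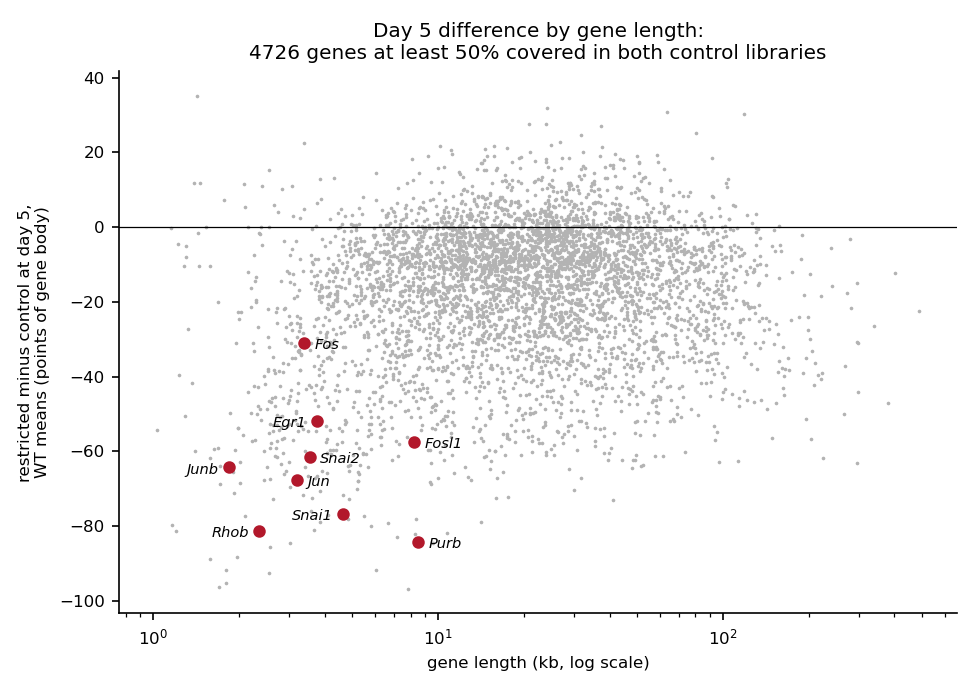
Difference in cover at day 5, restricted minus control (WT means, points of gene body), against gene length in kb on a log scale, for 4726 genes with at least 50% cover in both control libraries. Grey dots are genes and red points are the 9 genes of the set that qualify; they lie at the short end, from -30.9 for Fos to -84.1 for Purb.

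In control medium the set did not change as one between days. From day 0 to day 5, 3 of the 10 genes were called, beside 27.6% of all tested genes (1159 higher and 1506 lower, or 1613 and 1309 with each library centred on its median). This comparison shares its day 5 control libraries with the day 5 restriction comparison. Fos rose from 36.9% and 19.9% at day 0 to 61.6% and 70.6% at day 5 (37.7 ± 5.83 points SE, adjusted p = 0.00181, limma). Fosl1 fell from 85.0% and 89.7% to 70.2% and 66.6% (-19.0 ± 5.11 points SE, adjusted p = 0.0255, limma), and Egr1 fell from 73.1% and 71.2% to 57.4% and 53.9% (-16.5 ± 4.63 points SE, adjusted p = 0.0297, limma). Fos thus gained cover while its relative Fosl1 lost some, and the libraries of the days compared did not overlap at any of these 3 genes.

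At Egr1 and Fosl1 the calls from day 0 to day 5 were less firm than those under restriction, while at Fos they were not. The call at Egr1 was lost without any 1 of the 4 libraries compared and with each library centred on its median (adjusted p = 0.0717, limma), while the difference stayed at -14.1 to -18.2 points in these fits. The call at Fosl1 was lost without day 0 replicate 2 or either day 5 control library, at -16.6 to -20.8 points. It was also lost with lists shortened to one length, where the difference was larger at -34.0 points (adjusted p = 0.0647, limma), and with a fit of only the 6 libraries of days 0 and 5, where it was -19.0 points as before (adjusted p = 0.0645, limma). Over 18 alternatives the adjusted p of Egr1 reached 0.137 and that of Fosl1 0.125 by limma. The call at Fos was lost only with lists shortened to one length (20.8 points, adjusted p = 0.541, limma). Junb had 0% and 58.5% at day 0, so its replicates disagreed, and its difference of 35.0 ± 15.3 points (SE, adjusted p = 0.134, limma) was called only without day 0 replicate 2, at 64.2 points (adjusted p = 0.000287, limma). Jun, Rhob, Purb, Snai1, Snai2 and Myc differed by -2.43 to -9.78 points and were not called.

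Day 1 in control medium was the low point for Myc. It had 60.7% and 59.7% at day 0, 19.4% and 20.8% at day 1 and 58.7% and 42.1% at day 5, so that both day 1 libraries lay below all 4 others. Junb had its day 5 peaks after a day 1 with none. Rhob had 82.4% and 85.0% at day 0 and 88.7% and 87.0% at day 1, and Purb 93.5% and 86.7% against 94.8% and 94.4%. Across the set both day 1 control libraries were below both day 0 libraries in 4 genes, beside 49.2% of tested genes, and above them in 2 (Rhob and Purb), beside 5.69%. These day 1 values have no test here.

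From restricted day 1 to restricted day 5, Fos moved from 0% in both libraries to 38.6% and 31.8%, and it was the only gene of the 10 with both libraries above, beside 47.3% of tested genes. Egr1 moved the other way, from 20.2% and 28.7% to 7.76% and 0%, beside 12.2% of tested genes below. The other 8 overlapped between the days.

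The 2 KO lines differed from each other at these genes. KO line 2 had 0% cover at all 10 genes in all 5 conditions, except for 4.37% at Snai1 in control medium at day 5. In KO line 1 cover was low or absent at day 0 except at Snai1 (66.5%), and of the others only Fosl1, Myc (11.7%) and Purb (5.93%) had any. In control medium at day 1 it was 36.9% at Snai1, 23.1% at Jun, 11.2% at Purb, 8.27% at Snai2, 3.28% at Fosl1 and 0% at the other 5, and under restriction at day 1 it was 0% at all 10. At day 5 in control medium it was high in KO line 1: 86.8% at Snai1, 84.8% at Fosl1, 82.2% at Purb, 61.9% at Jun and 55.3% at Myc, then 39.6% at Rhob, 38.6% at Junb, 14.7% at Egr1, 4.35% at Snai2 and 0% at Fos. The covered length of the whole list of KO line 1 was also longest there, at 74.1 Mb, against 0.307 to 45.8 Mb in its other conditions.

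Tested over day 0 and both media of day 5, with libraries permuted within condition (an exact two-sided permutation test whose smallest possible p is 0.00926), WT cover was higher than KO cover at 2 of the 10 genes after BH adjustment, beside 84.6% of 9227 genes. The 3 libraries of a KO line come from 1 line and are permuted as if separate, and the lines differed from each other, so these p-values may be too small. The genes called were Fos, with a WT mean of 43.2% and a KO mean of 0% (adjusted p = 0.0120, exact permutation), and Egr1, with 43.9% and 2.46% (adjusted p = 0.0330, exact permutation). Rhob had 55.0% and 6.60% and Snai2 42.8% and 0.724% (adjusted p = 0.0626 for both, exact permutation). At restricted day 5 both genes had 0% in every WT and KO library, so that condition could add nothing to the test. Their unadjusted p of 0.0556 (exact permutation) was the smallest they could reach, so the missing call is no measure of a weaker difference. At the other 6 the difference, WT minus KO, was 10.6 to 39.4 points with adjusted p of 0.129 to 0.671 by the same exact permutation test. With peaks of a −log10 q of at least 3 none of the 10 was called, beside 6184 genes. Tests with 1 KO line or 1 WT replicate leave 1 library in an arm per condition, so their differences are given without calls. The median difference over the 10 genes was 32.4 points in the main test. It was 14.1 points with KO line 1 alone and 45.1 with KO line 2 alone, where all genes had medians of 34.6 and 48.7. Without WT replicate 1 or 2 it was 33.4 and 31.1 points.

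At day 5 under restriction KO line 1 had more cover than either WT library at 6 of the 10 genes, beside 10.1% of all tested genes and 15.8% of those under 10 kb. Snai1 had 87.4% in KO line 1, against 19.5% and 0% in WT. Junb had 84.9% against 0% in both WT libraries, and Jun 68.2% against 0% in both. Fosl1 had 76.8% against 3.76% and 18.2%, Purb 34.4% against 0% and 5.20%, and Myc 24.8% against 0% and 17.2%. Rhob, Snai2, Egr1 and Fos had 0% in KO line 1. The count is of 1 library against 2 and has no test. Median cover of the 10 genes was 0% in both restricted WT libraries of day 5. Over tested genes under 10 kb it was 28.6% and 29.7%. KO line 1 thus had less to exceed at these genes, which were chosen in part for lost WT cover under restriction. Nothing is therefore read from the larger share in the set.

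The restricted day 5 list of KO line 1 covered 45.8 Mb and the WT lists 131 and 134 Mb, and the part of these lengths in the result was not tested. The strongest KO line 1 peak over each of the 6 genes had a −log10 q of 17.4 at Snai1, 5.47 at Myc, 4.95 at Fosl1, 4.02 at Jun, 3.39 at Purb and 3.19 at Junb. These stood above 99.9%, 98.5%, 97.8%, 95.2%, 91.1% and 88.7% of the peaks in that list, in the same order. In control medium at day 5 KO line 1 was above both WT libraries at 2 of the 10, Fosl1 and Snai1, beside 6.04% of tested genes and 10.1% of those under 10 kb. At Snai1 the values were nearly equal, 86.8% in KO line 1 against 86.7% and 86.3%.

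The related genes of the same pathways were taken from 6 lists with 72 genes in all, none of them in the set, of which 57 were tested. At day 5, restriction lowered cover at 46 of the 57, raised it at 1 and gave no call at 10 (limma, BH over all genes), with a median difference of -27.3 points, where 41.5% of all tested genes were lower. In the list of other immediate early genes 20 of 24 fell, with a median of -43.1 points, and 20 of the 24 were under 10 kb. Of the 57 genes, 4 reached the minimum mean cover of 5% only through 1 condition, day 0 for Ier2, Nr4a2 and Twist2 and day 5 in control medium for Mxi1, and calls at these genes in a comparison with that condition carry no weight. Of the 46 calls of lower cover, 8 were smaller than the 16.9 points by which centring moved the median of all genes. Ier3, a stress-induced survival gene, had a mean of 81.4% in control medium and 0% under restriction (-81.4 ± 8.28 points SE, adjusted p = 0.000154). Btg1, an antiproliferative gene, fell from 83.1% to 3.13% (-80.0 ± 4.74 points SE, adjusted p = 1.47e-05), and Dusp1, the phosphatase that switches off MAP kinases, from 71.2% to 5.07% (-66.2 ± 5.22 points SE, adjusted p = 4.64e-05). Klf10 had 72.2% and 62.0% (-10.3 ± 3.68 points SE, adjusted p = 0.05003) and was not called.

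Partners and relatives of these factors, most of them longer genes, are given beside the same 41.5% of all tested genes called lower and median of -9.25 points. Among AP-1 partners 5 of 6 fell, with a median of -19.9 points; Fosl2 went from 92.3% to 55.9% and Mafk, at 35.3% and 27.6%, was not called. Among SRF and its ternary complex partners, which switch on Fos and Egr1, 4 of 6 fell, with a median of -12.5 points, and Elk1 rose from 32.3% to 49.9% (17.6 ± 5.29 points SE, adjusted p = 0.0266). Srf at -13.8 and Mrtfb at -10.4 points were among the calls smaller than that shift. In the MYC network 7 of 9 fell, among them the MYC antagonist Mxd1 from 89.6% to 47.2%, and the list median was -16.7 points. Mxi1 is 1 of these 7, with its cover in control medium at day 5 having brought it over the minimum. Among the SNAIL, TWIST and ZEB regulators 3 of 4 fell, with a median of -15.3 points.

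From day 0 to day 5 in control medium the same 57 genes were called higher at 9, lower at 10 and in neither direction at 38, with a median of -0.36 points, beside the 27.6% of all tested genes called in either direction (1159 higher and 1506 lower of 9651). In the MYC network 3 of 9 genes were called higher. Mxd1 rose to 89.6% at day 5 (71.6 ± 4.48 points SE, adjusted p = 1.21e-05) and Mxd4 from 15.8% to 74.2% (58.3 ± 5.52 points SE, adjusted p = 0.000112). The third was Mxi1, with 3.61% and 16.7%, which entered the test through its day 5 control cover. These 3 encode antagonists of MYC, as do Mxd3, at 54.9% and 39.5% (adjusted p = 0.0684), and Mnt, at 50.4% and 56.6% (adjusted p = 0.408), which were not called. All adjusted p of the lists are limma values over all 9651 genes.

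The genes whose WT profile lay nearest to the mean of Purb, Rhob and Snai1 were Rps18 (4.50 points), Btg1 (5.95), Gadd45g (6.37) and Irf2bpl (8.29), none of them in the set. Distance was the root mean square difference over all WT libraries, each taken singly. Rps18 encodes a ribosomal protein with copies elsewhere in the genome, so its cover is uncertain. Gadd45g, a growth arrest gene of 1.80 kb, had means of 81.5% at day 0, 91.3% and 0% at day 1 and 91.8% and 0% at day 5, control before restricted. Btg1, Gadd45g and Irf2bpl had 75.0 to 85.8% in KO line 1 under restriction at day 5, where their WT means were 0 to 3.13%; Rps18 had 0%. Within the set, the distance to that mean was 12.9 points for Fosl1, 14.1 for Jun, 17.96 for Snai2 and 21.7 for Egr1, and 38.0 for Myc, 44.3 for Fos and 50.9 for Junb.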

How the data were processed

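The 20 deposited lists are broad peaks, 1 list per library, so peaks were called per library. The peak caller and read filters are not given in the sources used here; the submitters' processing notes name GRCm38. The −log10 p and −log10 q values and the fold enrichment (a ratio) of each peak are the authors', deposited with the peaks, and were used only to filter or place peaks within a list. The deposited score was not used. Depth is unknown, so no counting interval is given. The shared input was not analysed here.

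Peaks were merged and intersected with RefSeq gene bodies (GRCm38.p6). Protein-coding genes of at least 1 kb whose cover averaged 5% or more in the 10 WT libraries were fitted with limma 3.58.1 (R 4.3.3, trend and robust) as 5 WT groups sharing 1 spread, with BH adjustment and calls under 0.05. WT and KO were compared by exact permutation within condition. Interval arithmetic, limma and the permutation were tested on simulated data. Replicate numbers gave no positive correlation of deviations above 0.0629 between any of the WT groups, so they were not used as pairs. The named genes are the 10 members, those of 6 lists of related genes, of which the examples were chosen after their values were seen, and the 5 nearest profiles; 1 of these lists and 1 of these profiles are not reported here. The members, lists and tests were chosen with earlier results of these data known. Alternatives were a −log10 q of at least 3, lists shortened to one length, centring, no filter, a 2 kb minimum, 5 kb flanks, a replicate block, fewer libraries and leaving out each library.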

Additional observations from a re-analysis of the deposited data

Results flagged for a closer look

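The values here stand out because KO line 1, a single library per condition, moved opposite to both WT replicates; the difference between the lines and WT was not tested in any of them. From control medium to restriction at day 5, cover in KO line 1 changed by 46.4 points at Junb, 6.28 points at Jun and 0.606 points at Snai1, while the WT means changed by -64.2, -67.6 and -76.7 points. The change at Snai1 is close to 0. The other genes of the set moved in KO line 1 in the WT direction or not at all, by -47.7 points at Purb, -39.6 at Rhob, -30.5 at Myc, -14.7 at Egr1, -8.01 at Fosl1, -4.35 at Snai2 and 0 at Fos. From day 0 to day 5 in control medium, cover in KO line 1 changed by 64.9 points at Fosl1, 61.9 at Jun, 43.6 at Myc, 20.3 at Snai1 and 14.7 at Egr1, while the WT means changed by -19.0, -3.53, -9.78, -7.16 and -16.5 points. KO line 1 also changed by 76.2 points at Purb, 39.6 at Rhob and 4.35 at Snai2, where the WT means changed by -3.38, -2.43 and -5.33 points with day 0 and day 5 libraries that overlapped. At Junb it changed by 38.6 points beside 35.0 in WT, and at Fos by 0 beside 37.7. Over the same days the whole list of KO line 1 grew from 17.7 to 74.1 Mb, and its part in these values was not tested.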

How the results depend on the processing

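Over 179 refits of the 10 genes at day 5, 174 kept the call of lower cover, 5 lost it and 0 reversed; the 5 were at Junb and Fos. The count of genes called lower was 9 of 10 with the −log10 q minimum of 3, 8 with lists shortened to one length, 9 with centring, 9 of 9 at a 2 kb minimum and 9 to 10 without 1 library. Over all genes, 413 higher and 4002 lower calls became 608 and 2334 with the −log10 q minimum of 3, 1420 and 2111 with shortened lists and 3811 and 1398 with centring, which moves the median of all genes from -9.25 to 7.64 points; without 1 library they were 205 to 482 and 2585 to 4222, with 205 to 249 higher without any 1 of the 4 day 5 libraries and 2585 lower without day 5 control replicate 1. From day 0 to day 5, 1 member was called with shortened lists and 1 to 3 without 1 library. All-gene calls were 1159 higher and 1506 lower, with 598 higher at the −log10 q minimum of 3, and 736 to 1359 higher and 942 to 1536 lower without 1 library; 942 was without day 5 control replicate 2 and 736 without replicate 1. Members not called there changed sign: Junb to -29.2 points with the −log10 q minimum of 3 and with shortened lists, and, without 1 library, Purb ranged from -9.39 to 2.63 and Snai2 from -12.9 to 2.20. The count at day 1, 9 of 10, was 8 to 10 over its alternatives.

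In the labels the WT samples of different groups share only a replicate number. The correlation of deviations between same-numbered libraries was -0.432 between day 0 and day 1 control. Between the other groups it was -0.0813 to 0.0629. What lies behind the negative value was not tested. With a replicate block, 4215 genes were called at day 5 and 2478 from day 0 to day 5, with 10 and 3 of the genes described here, as without it.

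WT above KO was called at 2 members and at 0 with the −log10 q minimum of 3. Shortening only the WT lists to the length of the KO line 1 list, an alternative chosen after seeing the data, can raise but not lower the count of genes where KO line 1 was above WT, so the 6 of 10 it gave show nothing. Differences not called reversed to -4.95 (Fosl1), -10.0 (Junb) and -16.9 (Snai1) points with KO line 1 alone, and at Junb to -10.8 with the −log10 q minimum of 3 and to between -2.20 and 23.3 without a WT replicate. The cause of these changes was not tested. Without read depth, an absent peak in a short gene cannot be told apart from one under the calling limit.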
